A study of Mus musculus with 20 samples.

Results

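The genes described here are 10 genes of endothelial cells and of the blood-brain barrier, chosen by name from the 45705 genes of the table: Pecam1, Cdh5, Cldn5, Kdr, Flt1, Tek, Tie1, Abcb1a, Slc2a1 and Mfsd2a. Each name occurs once in the table, and all 10 genes passed the filter on low values, as did 27614 genes in all. The libraries are 20, from the periventricular zone of Swiss Webster mouse pups at postnatal day 5, with 4 libraries of each of 5 populations sorted by the antigens CD133, LeX (CD15), CD140a and NG2. NSC (neural stem cells) were positive for CD133 and LeX and negative for CD140a and NG2. The progenitors were negative for CD133 and positive for NG2. Among them BNAP/GRP1 had LeX without CD140a, GRP2/MP3 had neither, GRP3 had CD140a without LeX, and PFMP had both. No population was treated and no gene was changed. The pups of a litter, of both sexes, were pooled, and the 4 libraries of a population come from 4 independent experiments, called batches 1 to 4 in the labels. The name NSC 3 thus stands for the neural stem cells of batch 3, and likewise for the others. The double names BNAP/GRP1 and GRP2/MP3 stand for mixed populations that share an antigen profile. No antibody against Pecam1 was part of the sort.

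Endothelial cells line the blood vessels. In the brain they are joined by tight junctions, of which claudin-5 is the main component, and they carry transporters that let glucose and certain lipids in and pump foreign compounds out. Their growth is steered by VEGF, read by the receptors that Kdr and Flt1 encode, and their quiescence by the angiopoietins, read by the receptor Tek with its partner Tie1. The question for these data was how much RNA of such cells each sorted population held.

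All 10 genes were found in GENCODE vM21 on GRCm38, the build of the study, as protein-coding genes. The junction genes were Pecam1 (ENSMUSG00000020717, chromosome 11 from 106654217 to 106750628), Cdh5 (ENSMUSG00000031871, chromosome 8 from 104101625 to 104144511) and Cldn5 (ENSMUSG00000041378, chromosome 16 from 18776847 to 18778262). The VEGF receptor genes Kdr (ENSMUSG00000062960, from 75932827 to 75978458) and Flt1 (ENSMUSG00000029648, from 147561604 to 147726011) both lie on chromosome 5. The angiopoietin receptor genes Tek (ENSMUSG00000006386, from 94739289 to 94874976) and Tie1 (ENSMUSG00000033191, from 118471191 to 118490061) both lie on chromosome 4. Of the transporter genes, Abcb1a (ENSMUSG00000040584) lies on chromosome 5 from 8660077 to 8748575, and chromosome 4 holds both Slc2a1 (ENSMUSG00000028645, from 119108711 to 119137983) and Mfsd2a (ENSMUSG00000028655, from 122946850 to 122961188).

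RefSeq's table of gene starts on GRCm38.p6 held 8 of the 10 genes, all but Pecam1 and Cdh5, and its start for Abcb1a lies far from that of GENCODE. The 250 bases before the start are shown for 3 genes that were higher in NSC and GRP2/MP3 than in GRP3 and PFMP outside batch 3, Cldn5 (chr16:18776597-18776846, plus strand), Kdr (chr5:75978456-75978705, minus strand) and Flt1 (chr5:147726012-147726261, minus strand), and for Mfsd2a (chr4:122961189-122961438, minus strand), the gene that ran the other way. Capitals mark GGAA, the core of the sites of ETS factors, or TTCC, the same core on the other strand.
Cldn5: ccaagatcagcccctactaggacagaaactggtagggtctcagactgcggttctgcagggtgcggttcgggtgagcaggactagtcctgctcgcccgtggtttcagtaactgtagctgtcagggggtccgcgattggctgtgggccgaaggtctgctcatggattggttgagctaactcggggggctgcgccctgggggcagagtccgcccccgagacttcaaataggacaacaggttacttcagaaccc
Kdr: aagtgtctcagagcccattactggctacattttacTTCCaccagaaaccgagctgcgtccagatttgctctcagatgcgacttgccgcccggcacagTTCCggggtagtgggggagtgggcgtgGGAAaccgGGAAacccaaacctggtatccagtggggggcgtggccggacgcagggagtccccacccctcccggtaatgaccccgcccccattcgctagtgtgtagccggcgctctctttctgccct
Flt1: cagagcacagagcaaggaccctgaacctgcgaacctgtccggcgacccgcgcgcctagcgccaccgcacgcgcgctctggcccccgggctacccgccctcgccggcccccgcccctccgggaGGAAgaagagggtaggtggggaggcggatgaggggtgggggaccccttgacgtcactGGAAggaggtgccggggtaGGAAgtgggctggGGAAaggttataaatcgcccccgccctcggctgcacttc
Mfsd2a: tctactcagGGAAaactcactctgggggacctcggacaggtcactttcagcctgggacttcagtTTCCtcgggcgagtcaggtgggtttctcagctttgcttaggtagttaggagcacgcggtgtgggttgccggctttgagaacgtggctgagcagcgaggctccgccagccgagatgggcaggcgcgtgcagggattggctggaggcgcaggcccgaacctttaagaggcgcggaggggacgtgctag
The core occurs 4 times before Kdr, 4 times before Flt1, 2 times before Mfsd2a and 0 times before Cldn5. Tie1 has 7 matches, Abcb1a 5, Tek 2 and Slc2a1 0. It is a common run of letters, present in 93.4% of 32851 windows of the same length with a median of 3 matches. The longer form AGGAAG, whose matches are among those of the core, stands on either strand in 29.5% of all windows and in 3 of the 8 windows held, Flt1 (2), Abcb1a (2) and Tie1 (1). Both strands were also searched for further sites of endothelial factors. GATAAG, a site of the GATA family, is in 6.55% of all windows and in 0 of the 8. A forkhead site, GTAAACA, is in 3.17% of all windows and once before Abcb1a. The SOX and TCF site ACAAAG is in 16.5% of all windows, and once each before Tek and Abcb1a. Letters in such a window are a description and not a binding site.

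Levels are given in RPKM, reads per gene length and sequencing depth, a scale on which genes may be compared. The steps between low values show how deep the libraries were against each other. With BNAP/GRP1 1 set to 1, the shallowest was BNAP/GRP1 4 (0.0395) and the deepest BNAP/GRP1 3 (1.41). Batch 3 stands apart. Its 5 libraries have a relative depth between 0.733 and 1.41, and they shared high levels of blood and lung genes whatever the population, with globin and other erythroid genes at 228440 to 252653 RPKM in sum (7 genes, 12.2 to 26515 elsewhere) and lung epithelium genes at 919.7 to 1043 RPKM (9 genes, 0.536 to 79.8 elsewhere). They still differed by population in other genes, such as 7 ependyma genes at 1277 RPKM in NSC 3 and 4.81 to 7.81 in the other 4. BNAP/GRP1 4, the shallowest library, had a median of 8.30 RPKM over all genes, while the other libraries had medians between 0 and 2.02. Calls, medians and the main differences are therefore also given without batch 3, and calls without both. Between libraries of bulk RNA, fewer endothelial cells and less RNA per cell cannot be told apart.

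Cldn5, the claudin of the endothelial tight junction, reached the highest level of the 10 genes in a single library. In NSC it stood at 105, 71.7, 0.607 and 14.6 RPKM in batches 1 to 4, and in GRP2/MP3 at 53.7, 53.7, 0.335 and 49.8. BNAP/GRP1 had 2.86, 3.14, 0.222 and 9.12, GRP3 had 1.50, 0.982, 0 and 3.99, and PFMP had 0.483, 3.04, 0 and 9.22. The means were 48.0 ± 49.0 RPKM (SD, n = 4) in NSC, 39.4 ± 26.1 in GRP2/MP3, 3.84 ± 3.76 in BNAP/GRP1, 3.19 ± 4.24 in PFMP and 1.62 ± 1.70 in GRP3, so that the SD was close to the mean or above it in all but GRP2/MP3. In batches 1, 2 and 4 NSC and GRP2/MP3 were above each of the other 3 populations in RPKM, and in batch 3 no library reached 1 RPKM. By rank within the library, NSC 4 (above 85.7% of its genes) was level with PFMP 4 (86%). The log2 difference from NSC was 0.02 in GRP2/MP3 (95% interval -2.60 to 2.64), -2.48 in BNAP/GRP1 (-5.11 to 0.14), -3.23 in GRP3 (-5.86 to -0.61) and -2.91 in PFMP (-5.53 to -0.29). None passed the threshold in limma's moderated test with Benjamini-Hochberg adjustment (adjusted p = 1, 0.866, 0.531 and 0.684 in that order). With the batch in the model (the replicate block) the fall in GRP3 passed, with an adjusted p of 0.0322 by limma. The adjusted p of that difference ran from 0.0120 to 1 over the alternatives.

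The number of reads behind such values can be read from the steps for 7 of the 10 genes, as the smallest whole numbers that reproduce all 20 values. NSC 1 held 1746 reads of Cldn5 and NSC 2 held 2759, while NSC 3, a deeper library than either (relative depth 0.733, with 0.157 and 0.365 in NSC 1 and 2), held 47. GRP2/MP3 1, 2 and 4 held 1980, 1324 and 1521 reads and GRP2/MP3 3 held 29. GRP3 3 and PFMP 3 held 0 reads at relative depths of 0.911 and 1.12. Cldn5 was thus low in batch 3 in some of the deepest libraries.

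Cdh5 encodes VE-cadherin, the cadherin of endothelial adherens junctions. It was a low gene here, at 4.75, 0.923, 0.294 and 6.44 RPKM in NSC and 1.96, 2.50, 0.162 and 1.14 in GRP2/MP3. BNAP/GRP1 had 0.310, 0.195, 0.113 and 5.46, GRP3 had 0.943, 0.566, 0.0130 and 1.23, and PFMP had 0.226, 0, 0 and 0.671. All 4 batches had less in PFMP than in NSC, with a log2 difference of -1.42 (95% interval -2.78 to -0.07, limma adjusted p = 0.763). NSC held 253, 114, 73 and 344 reads of it, PFMP 9, 0, 0 and 224.

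Pecam1, the adhesion molecule CD31, is made by endothelium and also by platelets and leukocytes. NSC had 14.0, 2.28, 5.51 and 10.2 RPKM, BNAP/GRP1 1.16, 11.6, 3.42 and 14.3, and GRP2/MP3 7.50, 7.54, 4.23 and 5.01. GRP3 had 1.45, 0.829, 4.89 and 4.00, and PFMP 1.32, 1.71, 4.81 and 0.547. Unlike Cldn5, Pecam1 kept a level of 3.42 to 5.51 in all 5 libraries of batch 3. There 5 platelet genes summed to 1596 to 1929 RPKM, against 7.04 to 144.7 in all other libraries but GRP2/MP3 1 (2379). Their mean log2(RPKM + 1) was 3.23 to 3.63 in batch 3, and BNAP/GRP1 4 (3.88) and GRP2/MP3 1 (3.86) lay above that. The sums thus do not stand for all 5 genes alike, and the part of platelets in the Pecam1 values was not tested. The log2 difference from NSC was -1.19 in GRP3 (limma adjusted p = 1) and -1.50 in PFMP (adjusted p = 0.763), lower in 4 of 4 batches of each.

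**Figure D1:**
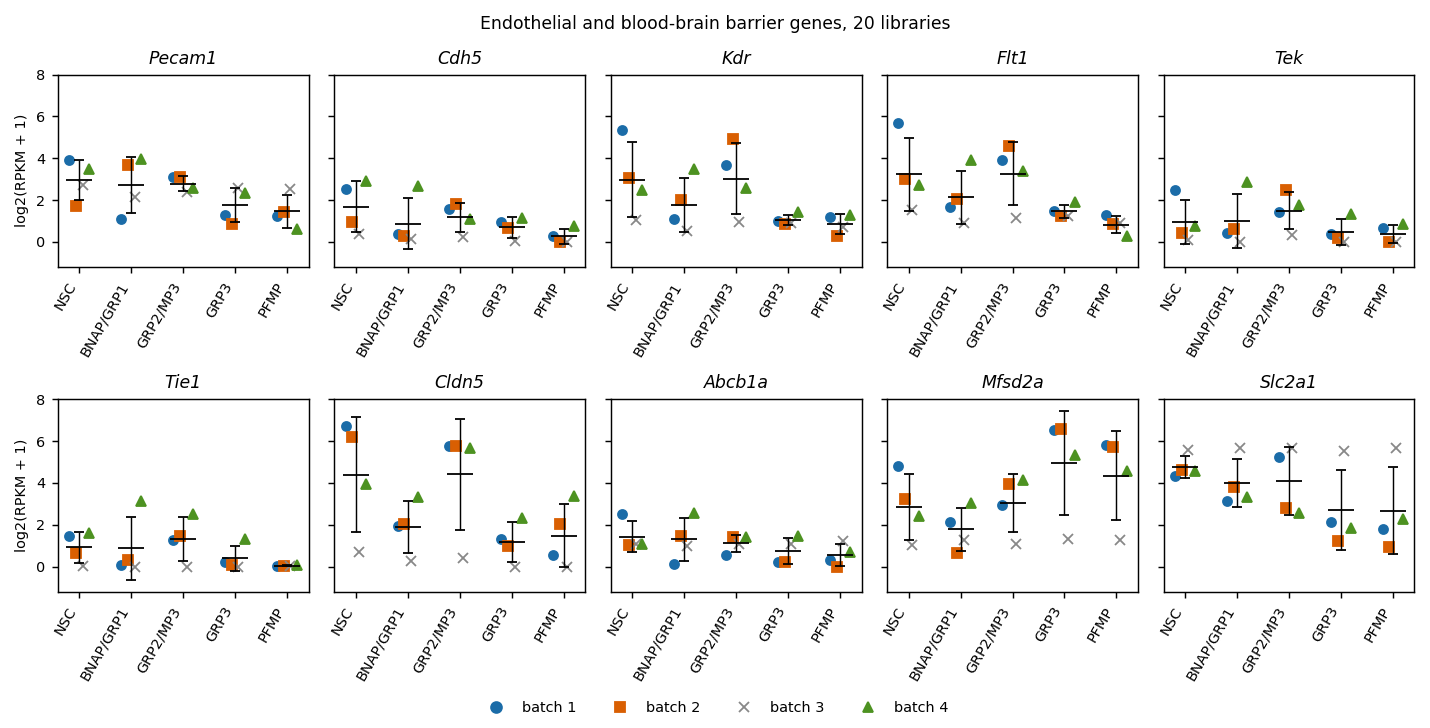
Level of each of the 10 genes as log2(RPKM + 1) (vertical axis) in the 4 libraries of each population (horizontal axis), with symbols by batch, the mean as a bar and the SD as whiskers. Outside batch 3 Cldn5 is highest in NSC and GRP2/MP3 and Mfsd2a in GRP3 and PFMP, and Slc2a1 is highest in batch 3 (44.4 to 50.5 RPKM). Kdr and Flt1 are highest in NSC and GRP2/MP3 in batches 1 and 2. In batch 4 they are highest in BNAP/GRP1 (10.03 and 14.1 RPKM), where the median of all genes is 8.30 RPKM.

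The VEGF receptor genes were high in NSC and GRP2/MP3 in batches 1 and 2, and in batch 4 their RPKM was highest in BNAP/GRP1. The median of all genes in BNAP/GRP1 4 was 8.30 RPKM, and by rank neither gene was highest there. Kdr stood above 59.7% of the genes of BNAP/GRP1 4, 77% in GRP2/MP3 4, 74.2% in NSC 4, 72.5% in PFMP 4 and 41.8% in GRP3 4. For Flt1 these shares were 74.5%, 84.7%, 76.7%, 62.2% and 60%. Kdr encodes VEGFR2, the main signalling receptor, and stood at 39.4, 7.27, 1.09 and 4.50 RPKM in NSC, 11.7, 29.6, 0.898 and 4.96 in GRP2/MP3 and 1.11, 2.97, 0.442 and 10.03 in BNAP/GRP1. GRP3 had 0.983, 0.806, 0.867 and 1.65, and PFMP had 1.27, 0.221, 0.610 and 1.45. The NSC and GRP2/MP3 libraries of batches 1, 2 and 4 lay above all 8 libraries of GRP3 and PFMP, and those of batch 3 lay among them. The log2 difference of Kdr from NSC was -1.94 in GRP3 (95% interval -3.76 to -0.12, limma adjusted p = 0.779) and -2.12 in PFMP (-3.94 to -0.29, adjusted p = 0.595).

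Flt1 encodes VEGFR1, which binds VEGF tightly and signals weakly. Its levels were 50.6, 6.92, 1.91 and 5.58 RPKM in NSC, 14.3, 22.8, 1.20 and 9.60 in GRP2/MP3 and 2.12, 3.12, 0.878 and 14.1 in BNAP/GRP1. GRP3 had 1.76, 1.35, 1.33 and 2.72, and PFMP 1.42, 0.809, 0.862 and 0.199. All 4 batches had less Flt1 in GRP3 and in PFMP than in NSC. The log2 difference was -1.78 in GRP3 (limma adjusted p = 0.860) and -2.41 in PFMP (95% interval -4.16 to -0.67, adjusted p = 0.334). Both receptor genes were well read even in batch 3, where Kdr had 300 to 387 reads and Flt1 486 to 707 in every population. In the shallower NSC 1 they had 2986 and 4011 reads.

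The angiopoietin receptor genes were lower still. Tek, the receptor TIE2, had 4.54, 0.326, 0.0724 and 0.694 RPKM in NSC, 1.70, 4.54, 0.237 and 2.43 in GRP2/MP3 and 0.347, 0.552, 0 and 6.34 in BNAP/GRP1. GRP3 had 0.296, 0.130, 0 and 1.56 and PFMP had 0.558, 0, 0 and 0.800. GRP2/MP3 had the highest mean of the 5 populations, 2.23 ± 1.79 RPKM (SD, n = 4), and the groups overlapped throughout. The log2 difference of Tek between NSC and the mean of the 4 progenitors was 0.10 (95% interval -0.99 to 1.19). It was higher in NSC in 2 of 4 batches, from 1.75 in batch 1 to -0.95 in batch 4. Such an interval does not show the levels to be alike.

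Tie1, the orphan partner of TIE2, had 1.77, 0.587, 0.00456 and 2.00 RPKM in NSC, 1.41, 1.76, 0 and 4.79 in GRP2/MP3 and 0.0535, 0.251, 0 and 7.72 in BNAP/GRP1. GRP3 had 0.153, 0.0694, 0 and 1.46. PFMP had 0.0284, 0.0163, 0.00299 and 0.0374 RPKM, the lowest population, with 1, 1, 1 and 11 reads. In batch 3 the 5 libraries together held 2 reads of Tie1, 1 in NSC and 1 in PFMP.

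Among the transporters, Abcb1a encodes the drug efflux pump P-glycoprotein. It has a close copy, Abcb1b, and its values were no whole multiples of a step, so shared reads may have been split between the copies. NSC had 4.81, 1.04, 1.13 and 1.13 RPKM, BNAP/GRP1 0.0925, 1.80, 1.01 and 4.92, and GRP2/MP3 0.485, 1.68, 1.09 and 1.67. GRP3 had 0.146, 0.151, 1.14 and 1.71, and PFMP 0.229, 0, 1.31 and 0.634. NSC 1 stood apart from the other 3 NSC libraries (1.04 to 1.13 RPKM), and the 5 libraries of batch 3 were within 1.01 to 1.31. The log2 differences from NSC lay between -0.88 in PFMP and -0.14 in BNAP/GRP1, none past the threshold (limma adjusted p from 0.941 to 1).

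Slc2a1 encodes the glucose transporter GLUT1, which brain endothelium carries at high level and red blood cells of newborn mice carry too. NSC had 19.4, 23.2, 46.1 and 22.8 RPKM, GRP2/MP3 37.3, 6.08, 50.5 and 4.97, and BNAP/GRP1 7.90, 12.8, 49.7 and 9.18. GRP3 had 3.42, 1.36, 44.4 and 2.62, and PFMP 2.48, 0.890, 49.8 and 3.78. The 5 libraries of batch 3 were thus the 5 highest of all 20, at like levels in every population, and the next was GRP2/MP3 1. The summed erythroid genes had the same 6 libraries at the top (26515 RPKM in GRP2/MP3 1), and their part in the Slc2a1 values was not tested. Within batches 1, 2 and 4 GRP3 and PFMP were the 2 lowest populations. The log2 difference from NSC was -2.08 in GRP3 (95% interval -4.21 to 0.04, limma adjusted p = 0.911) and -2.11 in PFMP (-4.23 to 0.01, adjusted p = 0.861). Without batch 3 and with the replicate block both passed in limma, at -2.76 (adjusted p = 0.0442, 0.0432 to 1 over the alternatives) and -2.85 (adjusted p = 0.0353, 0.0339 to 1 over the alternatives).

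Mfsd2a encodes the lipid transporter that carries docosahexaenoic acid into the brain and holds down transcytosis in its endothelium. In its estimates for GRP3 and PFMP against NSC it ran opposite to the other genes. GRP3 had 91.8, 95.6, 1.51 and 39.6 RPKM and PFMP 55.0, 51.6, 1.43 and 22.8. NSC had 27.1, 8.29, 1.02 and 4.27, GRP2/MP3 6.77, 14.3, 1.12 and 16.5, and BNAP/GRP1 3.45, 0.561, 1.39 and 7.24. Among NSC, GRP2/MP3 and BNAP/GRP1 its order was that of Kdr and Flt1 in batches 1 and 2, and not in batches 3 and 4. Mfsd2a was higher in GRP3 and in PFMP than in NSC in 4 of 4 batches, as were 8.31% and 5.75% of all genes, with log2 differences of 2.09 (95% interval -0.32 to 4.50, limma adjusted p = 1) and 1.48 (-0.93 to 3.89, adjusted p = 1). By percentile it stood above 95.1% to 97.4% of all genes in GRP3 1, 2 and 4 and PFMP 1 and 2. In these 5 libraries Cldn5 stood above 57.4% to 74.7%. In PFMP 4 Mfsd2a stood above 91.8% and Cldn5 above 86%.

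The 7 genes that mark oligodendrocyte progenitors (OPC) summed to 708 to 2819 RPKM in GRP3 1, 2 and 4 and 339 to 2453 in PFMP 1, 2 and 4. In the other populations of these batches the sum was 15.5 to 203. In each of batches 1, 2 and 4, the GRP3 and PFMP libraries had the 2 highest levels of the OPC genes, the 2 highest of Mfsd2a and the 2 lowest of Slc2a1. In batch 3, where the OPC genes summed to at most 13.3 RPKM, Mfsd2a was 1.02 to 1.51 in all 5 populations. The part of OPC RNA in the Mfsd2a values was not tested.

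**Figure D2:**
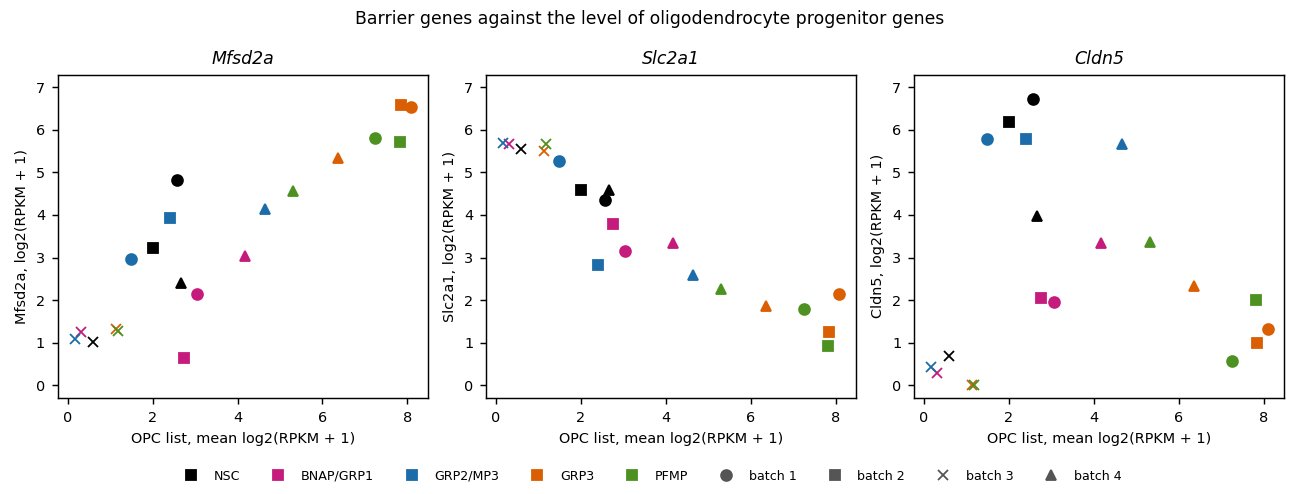
Level of Mfsd2a, Slc2a1 and Cldn5 (vertical axes, log2(RPKM + 1)) against the mean level of 7 OPC genes (horizontal axis, log2(RPKM + 1)) in the 20 libraries, with colours by population and symbols by batch. GRP3 and PFMP outside batch 3 lie far right, high for Mfsd2a (22.8 to 95.6 RPKM) and low for Slc2a1 (0.890 to 3.78 RPKM), and the crosses of batch 3 lie together at the left.

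Each progenitor was compared with NSC to see whether the genes changed on leaving the stem cell gate. In the tests over 27614 genes by limma, 0 of the 10 genes passed the threshold in any of the 4 progenitors. At an unadjusted p under 0.05 the counts were 5 lower in PFMP (Pecam1, Cdh5, Kdr, Flt1 and Cldn5), 3 lower in GRP3 (Kdr, Flt1 and Cldn5), and 0 in both GRP2/MP3 and BNAP/GRP1. Of all genes, 1.14% were called lower in PFMP, 1.04% in GRP3, 1.12% in GRP2/MP3 and 0.76% in BNAP/GRP1, and at an unadjusted p under 0.05 these shares were 5.08%, 4.36%, 4.92% and 4.03%. The shares called higher were 0.00362%, 0.0109%, 0% and 0%. With the replicate block the counts were 0, 1 (Cldn5), 0 and 0, where 2.61%, 2.33%, 2.91% and 2.02% of all genes were called lower. The 4 comparisons share the NSC libraries.

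Lower values than NSC in all 4 batches were seen for 7 of the 10 genes in GRP3 (9.07% of all genes), 6 in PFMP (12.3%), 2 in BNAP/GRP1 (7.68%) and 0 in GRP2/MP3 (12%). The 7 genes of GRP3 were Pecam1, Cdh5, Kdr, Flt1, Tie1, Cldn5 and Slc2a1, and PFMP lacked only Slc2a1 of these. For Tie1 the sign in batch 3 rests on 1 read in NSC, 0 in GRP3 and 1 in PFMP, so that batch says nothing about it. In BNAP/GRP1 they were Cdh5 and Cldn5. The median log2 difference of the 10 genes was -1.09 in GRP3, -1.46 in PFMP, -0.80 in BNAP/GRP1 and 0.02 in GRP2/MP3, beside 0.05, -0.21, 0.38 and -0.08 over all genes tested. Batch 3 differences were small, between -0.68 and 0.31 in these 4 comparisons, and those of batch 1 reached -6.16 (Cldn5 in PFMP).

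**Figure D3:**
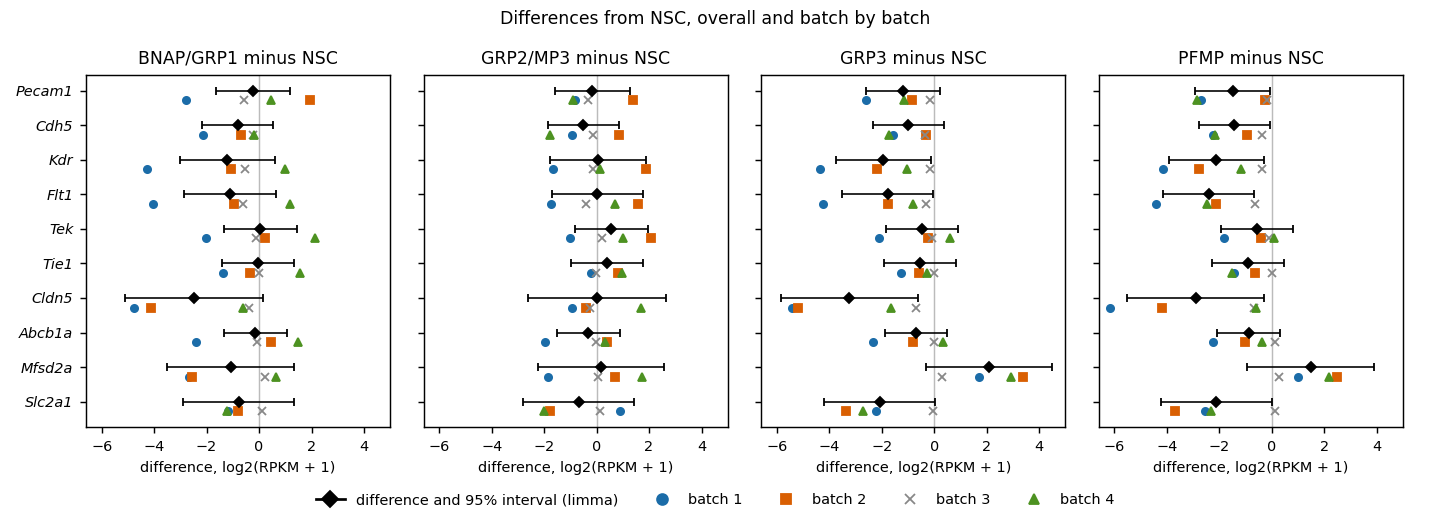
Difference from NSC on the log2(RPKM + 1) scale (horizontal axis) for each of the 10 genes (vertical axis) in the 4 progenitors, as the limma estimate with its 95% interval (diamonds) and as the difference within each batch (symbols). In GRP3 and PFMP all genes but Mfsd2a have estimates below 0, in GRP2/MP3 the estimates lie between -0.68 and 0.56, and the crosses of batch 3 stay near 0.

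NSC was also set against the mean of the 4 progenitors, which asks what the NSC gate held. All 4 progenitors differed from NSC in NG2 as well as in CD133, so the parts of these antigens cannot be told apart. The comparison gave 0 of 10 genes past the threshold by limma, with 1.96% of all genes called higher and 0.0217% lower. At an unadjusted p under 0.05 there was 1, Cldn5 (log2 difference 2.15, 95% interval 0.08 to 4.22, adjusted p = 0.674), where 5.96% of all genes were higher. The replicate block gave 0 as well, with 4.14% of all genes called higher. Higher levels in NSC in all 4 batches were seen for Cdh5, Kdr, Flt1 and Cldn5, and for 10.1% of all genes. The median over the 10 genes was 0.85, against -0.07 over all genes tested.

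GRP2/MP3 set against the mean of the other 3 progenitors gave 0 of 10 genes by limma and 0 with the replicate block, where 0% of all genes were called in either direction with either. At an unadjusted p under 0.05, Kdr (log2 difference 1.81, SE 0.71, adjusted p = 1.00), Flt1 (1.80, SE 0.68) and Cldn5 (2.89, SE 1.03) were higher, as were 0.789% of all genes. Higher in all 4 batches were 5 of the 10 genes, Kdr, Flt1, Tek, Cldn5 and Slc2a1, and 2.62% of all genes. Mfsd2a was lower in all 4 batches, as were 10.6% of all genes, and its log2 difference was -0.66 (95% interval -2.63 to 1.30). The median over the 10 genes was 0.88, beside -0.18 over all genes tested. Between GRP2/MP3 and NSC themselves the 10 estimates lay between -0.68 (Slc2a1) and 0.56 (Tek). Their 95% intervals ran from as narrow as -1.51 to 0.87 (Abcb1a) to as wide as -2.60 to 2.64 (Cldn5), and each passed 1 on the log2 scale on at least 1 side, so these data do not show the populations to be alike.

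Without batch 3, limma called Cldn5 lower in GRP3 (log2 difference -4.08, adjusted p = 0.0143) and in PFMP (-3.65, adjusted p = 0.0297) and higher in NSC than in the mean of the progenitors (2.70, adjusted p = 0.0331). In that setting 1.37% of all genes were called lower in GRP3, 1.52% lower in PFMP and 2.38% higher in NSC. Over all alternatives the adjusted p of these differences ran from 0.0120 to 1 in GRP3, from 0.0222 to 1 in PFMP and from 0.0197 to 1 in NSC. Adding the block to this setting added Slc2a1 in GRP3 (1.9% of all genes lower) and PFMP (2.11% lower), as given above, and left Cldn5 in NSC (3.19% higher). With BNAP/GRP1 4 left out too, a setting chosen after the values were seen, Cldn5 and Slc2a1 were called lower in GRP3 and Cldn5, Slc2a1 and Flt1 (-3.00, adjusted p = 0.0371, 0.0305 to 1 over the alternatives) in PFMP, where 2.14% and 2.8% of all genes were lower, and Cldn5 higher in NSC (4.06% of all genes). With the block in that setting Mfsd2a was called higher in GRP3 (2.68, adjusted p = 0.0421, with a range up to 1 over the other alternatives), where 0.808% of all genes were higher. There 2.63% of all genes were lower in GRP3, 3.48% lower in PFMP and 4.83% higher in NSC. None of these settings called any of the 10 genes in BNAP/GRP1, in GRP2/MP3 or between GRP2/MP3 and the other 3 progenitors. Without batch 3, limma called 1.01% of all genes lower in BNAP/GRP1, 1.51% lower and 0.297% higher in GRP2/MP3, and 0.00724% higher in GRP2/MP3 than in the other 3, and at an unadjusted p under 0.05 these comparisons had 1, 0 and 4 of the 10 genes.

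The differences of Cldn5, Kdr, Flt1 and Mfsd2a from NSC in GRP3 and PFMP were larger in size without batch 3. Kdr was -2.53 in GRP3 and -2.69 in PFMP against NSC (limma adjusted p = 0.230 and 0.174), and Flt1 -2.27 and -3.00 (adjusted p = 0.289 and 0.0874). Mfsd2a was 2.68 in GRP3 (adjusted p = 0.114) and 1.89 in PFMP (adjusted p = 0.391). In GRP2/MP3 against the other 3 progenitors Kdr was 2.34, Flt1 2.35 and Cldn5 3.75 (adjusted p = 0.397, 0.334 and 0.122). The median of the 10 genes was -1.37 in GRP3, -1.86 in PFMP, -1.04 in BNAP/GRP1 and 0.11 in GRP2/MP3, against 0.071, -0.26, 0.52 and -0.092 over all genes, and 1.04 in NSC and 1.13 in GRP2/MP3 against the other progenitors, with -0.10 and -0.24 over all genes.

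The summed level of the 8 genes other than Mfsd2a and Slc2a1, which were set aside after their values were seen, shows the libraries at a glance. It was 225, 91.0, 10.6 and 45.1 RPKM in NSC and 92.8, 124, 8.15 and 79.5 in GRP2/MP3. BNAP/GRP1 had 8.05, 23.6, 6.08 and 72.0, GRP3 had 7.23, 4.88, 8.24 and 18.3, and PFMP had 5.53, 5.79, 7.60 and 13.6. By this sum NSC was highest in batch 1 and GRP2/MP3 in batches 2 and 4, so the order of these 2 populations changed between experiments. GRP3 and PFMP had the 2 lowest sums in batches 1, 2 and 4. The sums lean on Cldn5, which made 71.7 of the 91.0 RPKM in NSC 2. By the mean log2(RPKM + 1) of the 8 genes BNAP/GRP1 was highest in batch 4 (3.24, with 2.63 in GRP2/MP3). In batch 1 BNAP/GRP1 (0.849) was then level with GRP3 (0.850).

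The high sums of batch 4 need the level of the library beside them. BNAP/GRP1 4 had 5.46 RPKM of Cdh5, 6.34 of Tek, 7.72 of Tie1, 4.92 of Abcb1a and 7.24 of Mfsd2a, all below the 8.30 that was the median of all genes there. In GRP3 4, with a median of 2.02 RPKM, 5 of the 10 genes were below it (Cdh5, Kdr, Tek, Tie1 and Abcb1a), and in NSC 4, with a median of 1.61, 2 were (Tek and Abcb1a). In GRP2/MP3 4 all 10 lay above the median of 0.977. By rank, Cldn5 stood above 95.8% of the genes of GRP2/MP3 4, as in GRP2/MP3 1 (96.2%) and GRP2/MP3 2 (95.8%). In NSC 4 the share was 85.7%, below the 97.2% and 95.9% of NSC 1 and 2. It was 86% in PFMP 4, level with NSC 4, 69% in GRP3 4 and 55% in BNAP/GRP1 4.

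**Figure D4:**
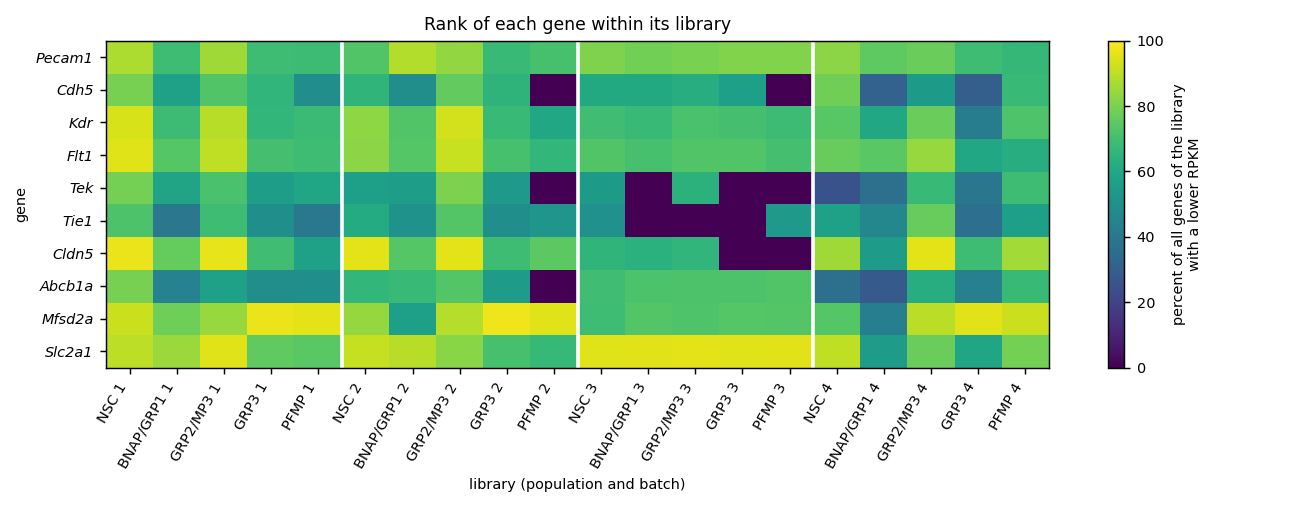
Percent of all genes of a library with a lower RPKM than the named gene (colour), for the 10 genes (vertical axis) in the 20 libraries (horizontal axis), ordered by batch. Cldn5 is between 95.8% and 97.2% in NSC 1 and 2 and GRP2/MP3 1, 2 and 4, Slc2a1 is between 95.1% and 95.8% in all 5 libraries of batch 3, and the darkest cells mark genes listed at 0.

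Further genes of endothelium were read from 4 lists. Of 32 wider endothelial genes, 0 passed the threshold by limma in any of the 6 comparisons. At an unadjusted p under 0.05 there were 2 lower in GRP3 (4.36% of all genes) and 5 lower in PFMP (5.08%). There were also 2 higher in NSC than in the mean of the progenitors (5.96%) and 5 higher in GRP2/MP3 than in the other 3 progenitors (0.789%). The estimates of the list were below 0 for 31 of 32 genes in GRP3 and 31 of 32 in PFMP, with medians of -0.78 and -0.97. Of all 27614 genes tested, 15294 had estimates above 0 in GRP3 and 10124 in PFMP. In BNAP/GRP1 and GRP2/MP3 the medians of the list were -0.25 and 0.08. With the replicate block Ecscr, an endothelial surface protein, fell in GRP3 (log2 difference -3.31, adjusted p = 0.00739) and in PFMP (-3.39, adjusted p = 0.00577), and was higher in NSC than in the mean of the progenitors (1.96, adjusted p = 0.0394). With the block 2.33% of all genes were called lower in GRP3, 2.61% lower in PFMP and 4.14% higher in NSC. Over the alternatives of the 3 Ecscr differences the adjusted p ran up to 1. Ecscr had 8.37, 23.0, 5.87 and 24.8 RPKM in NSC, 0.106, 0.0783, 0.431 and 1.43 in GRP3 and 0, 0, 0 and 2.33 in PFMP, so the GRP3 and PFMP libraries did not overlap with NSC. BNAP/GRP1 had 9.34, 27.6, 0.988 and 11.5 RPKM and GRP2/MP3 26.9, 8.22, 0.461 and 23.8, and both overlapped with NSC. Without batch 3 limma called 1 gene of the list lower in GRP3 (1.37% of all genes) and 1 in PFMP (1.52%), and the medians were -1.03 and -1.25.

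Of 27 further blood-brain barrier genes 26 were tested, and 1 was called by limma, Ocln, which encodes occludin, a tight junction protein of endothelia and of epithelia. Ocln stood at 20.5, 11.6, 2.58 and 20.1 RPKM in NSC, 0.193, 0.269, 0.121 and 1.83 in GRP3 and 0.138, 0.613, 0.165 and 0.556 in PFMP. GRP2/MP3 had 0.677, 1.30, 0.241 and 1.98 and BNAP/GRP1 0.269, 0.586, 0.258 and 11.1. NSC was above the other populations in every batch. Ocln fell in GRP3 (log2 difference -3.01, adjusted p = 0.0440) and PFMP (-3.15, adjusted p = 0.0295) and was higher in NSC than in the mean of the progenitors (2.78, adjusted p = 0.00742). The call in GRP3 was lost on leaving out any 1 of GRP3 1, 2 and 3 and NSC 1, 2 and 4 (limma adjusted p from 0.123 to 0.191), that in PFMP on leaving out any 1 of the 4 PFMP libraries and NSC 1, 2 and 4 (0.0678 to 0.135), and that in NSC on leaving out NSC 1 or NSC 4 (0.0705 and 0.0560). The direction held in each of these. In GRP2/MP3, where Cldn5 was high, its log2 difference was -2.62 (adjusted p = 0.107, and 0.00754 with the replicate block), and in BNAP/GRP1 -2.35 (adjusted p = 0.248, and 0.0230 with the block). The 7 markers of ependyma, the ciliated epithelium of the ventricle, summed to 1277 to 14612 RPKM in NSC and 4.48 to 540 in the progenitors, and their part in the Ocln values was not tested. The median of the list was -0.74 in GRP3, -1.08 in PFMP, 0.03 in GRP2/MP3 and -0.69 in BNAP/GRP1. With the block 4 of its genes were lower in GRP3 (2.33% of all genes). Beside Ocln these were by limma the transporter genes Slco1c1 (-3.36, adjusted p = 0.0123) and Slc38a5 (-2.88, adjusted p = 0.0280) and the antimicrobial gene Pglyrp1 (-3.49, adjusted p = 0.0125). In PFMP the block called Ocln and Slc38a5 (2.61% of all genes lower), and in NSC against the mean of the progenitors Ocln, Slc38a5 and Slco1c1 (4.14% higher). The adjusted p of these transporter and Pglyrp1 differences ran up to 1 over the alternatives. Without batch 3 the list had 4 genes called lower in GRP3 (1.37% of all genes) and 2 in PFMP (1.52%) by limma, and medians of -0.92 and -1.44. Pglyrp1 stood at 60.0 to 77.3 RPKM in all 5 libraries of batch 3.

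The ligands and co-receptors of angiogenic and barrier signalling, VEGF, angiopoietin and Wnt7 among them, had medians near 0. Of 23 genes 21 were tested, and 0 passed by limma in any comparison, with and without the block. At an unadjusted p under 0.05 there were 3, all higher in GRP2/MP3 than in the mean of the other 3 progenitors (0.789% of all genes). These were the VEGF co-receptor gene Nrp1, Apln and the gene of its receptor, Aplnr, with log2 differences of 1.94, 2.09 and 1.65. They are named after their values were seen. The medians were between -0.13 and 0.13 in the 6 comparisons. Of 8 genes of lung endothelium, read because batch 3 held lung genes, 0 passed by limma and 1 (Scn7a, lower in PFMP and higher in NSC) passed with the block, with limma adjusted p = 0.0486 and 0.0289 (up to 1 over the alternatives). The block called 2.61% of all genes lower in PFMP and 4.14% higher in NSC. At an unadjusted p under 0.05 there was 1 lower gene in each of GRP2/MP3, GRP3 and PFMP (4.92%, 4.36% and 5.08% of all genes) and 1 higher in NSC (5.96%). Its 8 genes summed to 4.73 to 9.01 RPKM in batch 3 and to 5.79 to 161 in the other libraries. Most of the sum in batch 3 was Cyp4b1, at 3.54 to 7.53 RPKM there, 8.96 in BNAP/GRP1 4 and 0 to 1.32 in the other libraries, a gene named after its values were seen. Without batch 3 the medians against NSC lay between -0.18 and 0.17 for the signalling genes and between -0.84 and 0.48 for the lung endothelium genes. With the block in that setting, 1 lung endothelium gene was called higher in GRP3, 1 higher in PFMP and 0 lower in either. Tmem100 alone made 143 and 159 RPKM of the sums in GRP3 1 and 2.

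Other cells of the vessel wall and the blood were followed beside these genes. Pericytes, which wrap the endothelium and carry the NG2 antigen of the gate, were read from 10 genes, all of them positive in GRP2/MP3 against NSC with a median log2 difference of 2.46. By limma 0 of the 10 passed there. At an unadjusted p under 0.05, 5 were higher, as were 241 of the 27614 genes tested. With the replicate block 5 were called higher, where 0.174% of all genes were. Without batch 3, limma called 5 of them higher (0.297% of all genes) and the median was 3.30. Their sum was 534, 464, 125 and 7483 RPKM in GRP2/MP3, against 6.05, 30.0, 117 and 116 in NSC. NSC 1 thus had the highest endothelial sum of all libraries (225 RPKM) and the lowest pericyte sum, while GRP2/MP3 1 and 2 were high in both. In batch 3 the pericyte sum was 117 to 131 RPKM in all 5 populations. The mean log2(RPKM + 1) of the 10 genes was only 0.770 to 0.981 there, so that sum does not stand for all of them alike. The 13 microglia genes summed to 928 to 8739 RPKM in GRP2/MP3 1, 2 and 4 and 178 to 9358 in BNAP/GRP1 1, 2 and 4, with 38.8 to 93.2 in NSC 1, 2 and 4. BNAP/GRP1 1, at 9358 RPKM of microglia genes, had 8.05 RPKM of the 8 endothelial genes, while GRP2/MP3 1 and 2 were high in both (8739 and 5124 RPKM of microglia genes). The astroglia genes (6) summed to 299 to 2315 RPKM in NSC 1, 2 and 4 and to 39.3 to 1627 in GRP2/MP3 1, 2 and 4. Choroid plexus genes (7) were at 52.9 to 213 RPKM in NSC 1, 2 and 4 and at most 88.1 in the progenitors. The part of these cells in the levels of the endothelial genes was not tested. In PFMP, the choroid plexus gene Kcne2, the lung endothelium gene Gpihbp1 and the ligand gene Angpt4 were listed at 0 in all 4 libraries, and no other gene of any list was at 0 throughout a population.

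**Figure D5:**
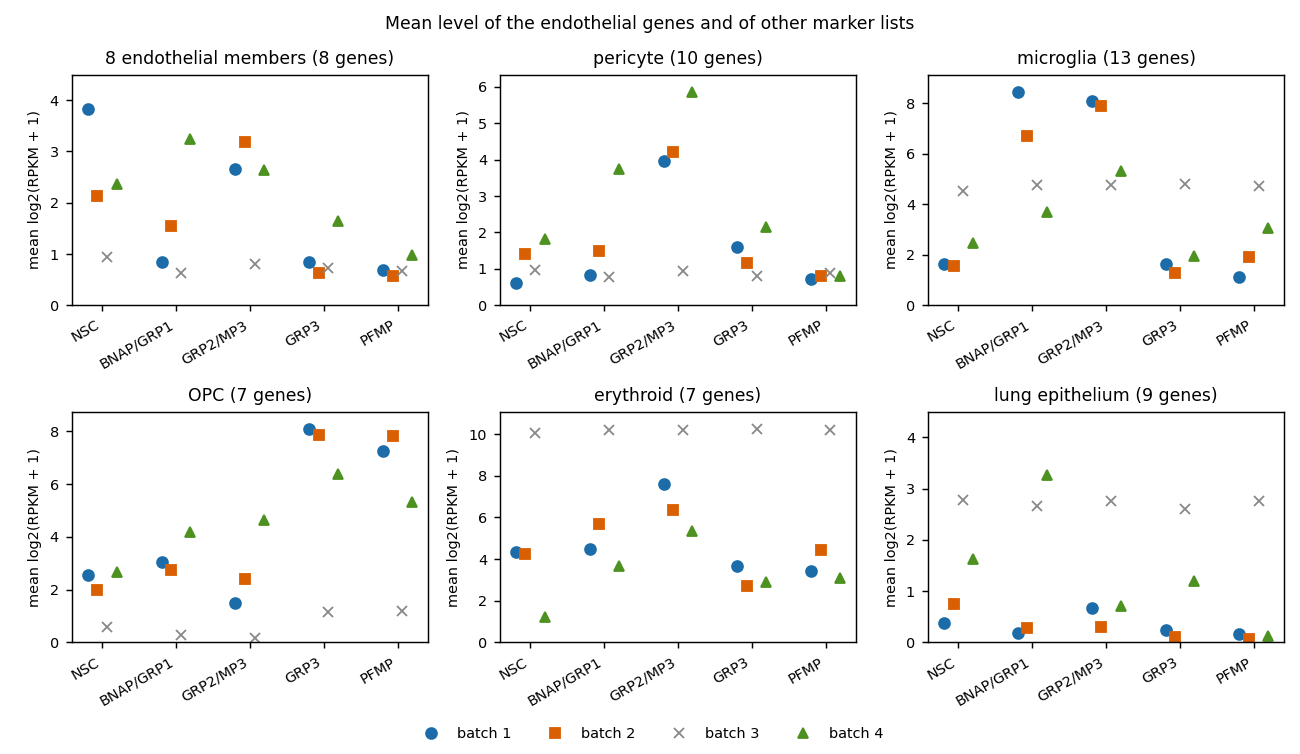
Mean log2(RPKM + 1) (vertical axes) of the 8 endothelial genes other than Mfsd2a and Slc2a1 and of 5 marker lists in the 4 libraries of each population (horizontal axes), with symbols by batch. The endothelial genes are high in NSC and GRP2/MP3 outside batch 3, and the pericyte genes in GRP2/MP3 outside batch 3. Both are also high in BNAP/GRP1 4, where the median of all genes is 8.30 RPKM. In that library all panels, lung epithelium among them, lie between 3.24 and 4.17. The crosses of batch 3 are far above the rest for the erythroid genes (228440 to 252653 RPKM in sum).

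The 10 genes were not equally tied to one another over the 20 libraries. Pearson's r between a gene and the mean of the other members, as a description over 20 libraries that share batches and depth, was 0.952 for Flt1, 0.945 for Kdr, 0.867 for Tek, 0.844 for Cdh5, 0.802 for Tie1 and 0.786 for Cldn5. It was 0.649 for Abcb1a and 0.603 for Pecam1, and -0.10 for Mfsd2a and -0.12 for Slc2a1. After the mean of each batch was subtracted, r was 0.557 for Slc2a1 and -0.43 for Mfsd2a. Among all other genes tested, the 10 most like the mean of the members were Sox18 (r = 0.962), Mmrn2 (0.962), Fzd6 (0.956), Aplnr (0.949), Egflam (0.948), Esam (0.933), Robo4 (0.927), Foxf2 (0.921), C130074G19Rik (0.920) and Adgrf5 (0.920). With batch means subtracted, Fzd6 (0.961), Mmrn2 (0.951) and Sox18 (0.949) led, Cd93 (0.940) and Emcn (0.916) came in for Foxf2 and C130074G19Rik, and the other 5 stayed. Sox18 is a transcription factor of endothelium, Mmrn2, Esam, Robo4, Cd93 and Emcn are proteins of the endothelial surface or matrix, and Aplnr is the receptor of apelin on vessels. Of these, Sox18, Mmrn2, Esam, Robo4, Cd93 and Emcn were in the list of wider endothelial genes.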

How the data were processed

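Poly(A) RNA of the 20 sorted samples was amplified as antisense RNA and sequenced. Per the submitters' processing notes, FastQC 0.11.9, cutadapt 3.4, STAR 2.6.1, Salmon 1.9.0 and DESeq2 1.26.0 were used with the GRCm38 build. The authors deposited RPKM values for 45705 genes in 1 table. The gene lengths and read totals behind them are not given in the sources used here. Amplification and the mix of cells behind a sort can both move an RPKM value.

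Values were taken as log2(RPKM + 1), so a difference understates the change of low genes. A gene was tested if 4 or more libraries had 1 RPKM or more (27614 genes). Differences were tested with limma 3.58.1 in R 4.3.3, with 1 mean per population, a trended prior, no batch term and Benjamini-Hochberg adjustment over all genes tested, at a threshold of 0.05. The p-values measure the spread between these samples, which come from 4 experiments. Libraries of a batch deviated together (median r between 0.262 and 0.769 within batches, -0.25 between batches), and the batch label marks a shared experiment, so the batch was also fitted as a replicate block, and its value is given where it changes a call. Other alternatives were the pseudocount 0.1, no filter, a mean of at least 5 RPKM, median-of-ratios and quantile scaling, libraries scaled to a sum of 1000000, no trend, only the compared populations, and leaving out each library or batch.

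The depth is known only as the ratio between libraries, read from the steps of low values. For 7 of the 10 genes all 20 values were whole numbers of reads within 0.01 reads plus 1e-05 of the value, and not for Pecam1, Abcb1a and Slc2a1. Of 3000 genes drawn from all genes 1293 were whole, too few for a count test. The steps were tested on simulated data first. Promoter windows and motifs were read from RefSeq on GRCm38.p6 and positions from GENCODE vM21. Figures were drawn with matplotlib 3.10.9.

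The 10 genes and the lists beside them were chosen with earlier results of these data known. The text names the 10 genes in every library, genes of the endothelial and barrier lists past the threshold in a comparison, the 10 genes most like the mean of the members by Pearson's r, and of the lists for other cells the genes at 0 throughout a population. Genes called only with the replicate block, and those said to be named after their values were seen, fall outside this rule. In all, 13 lists were followed beside the 10 genes.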

Additional observations from a re-analysis of the deposited data

Results flagged for a closer look

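In groups of 4 libraries, a value was set apart when its gap to the nearest other library took more of the range of the group, on the log2 scale, than Dixon's 95% critical value allows. Of 50 groups of a gene and a population 5 had such a value, and chance alone sets apart about 1 in 20. BNAP/GRP1 4 was high for Cdh5 (5.46 RPKM, with 0.113 to 0.310 in the other 3 libraries) and for Tie1 (7.72 RPKM, with 0 to 0.251). Its median over all genes was 8.30 RPKM and it was the shallowest library, with 73 reads of Cdh5 and 91 of Tie1. GRP3 4 was high for Tie1 (1.46 RPKM on 120 reads, with 0 to 0.153 elsewhere in GRP3), with a library median of 2.02 RPKM. GRP2/MP3 3 was low for Cldn5 (0.335 RPKM on 29 reads, with 49.8 to 53.7 in the other 3). NSC 1 was high for Abcb1a (4.81 RPKM, with 1.04 to 1.13 in the other 3), as it was for Kdr and Flt1. Whether the batch or the depth bears on these values was not tested.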

How the results depend on the processing

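The count of members called was 0 in each of the 6 comparisons whichever single library was left out, and in BNAP/GRP1, GRP2/MP3 and GRP2/MP3 against the other progenitors it was 0 under every alternative. In GRP3 the count was 1 with the replicate block, 1 without batch 3, 2 without batch 3 with the block, 2 without batch 3 and BNAP/GRP1 4 (chosen after seeing the data), and 3 with the block in that setting, where 2.33%, 1.37%, 1.9%, 2.14% and 2.63% of all genes were called lower. In PFMP it was 1 without batch 3, 2 with the block there, and 3 and 3 without BNAP/GRP1 4 too (1.52%, 2.11%, 2.8% and 3.48% of all genes lower). In NSC against the mean of the progenitors it was 1, 1, 1 and 1 in the same 4 settings (2.38%, 3.19%, 4.06% and 4.83% of all genes higher). Over the single genes, 1856 values kept their sign and side of the threshold, 89 passed it only in an alternative, 27 lost it (all for Ocln) and 66 changed sign.

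Sign changes were confined to differences of at most 0.51 in size. In GRP2/MP3, Cldn5 was -0.077 in libraries scaled to 1000000, -0.08 with the pseudocount 0.1 and -0.55 without batch 4 (-1.22 to 1.35 over single libraries left out), Flt1 was -0.066 scaled, -0.49 without batch 2 and -0.19 without batch 4 (-0.54 to 0.85), and Kdr was -0.042 scaled and -0.56 without batch 2 (-0.59 to 0.84). Mfsd2a was -0.019 without batch 2 and -0.36 without batch 4 (-0.45 to 0.82), Pecam1 0.073 by quantile scaling, 0.056 without batch 1 and 0.083 without batch 4 (-0.57 to 0.16), Abcb1a 0.23 without batch 1 (-0.46 to 0.048) and Tie1 -0.02 to 0.83 over single libraries. In BNAP/GRP1, Tek was -0.11 scaled, -0.08 by median-of-ratios, -0.13 with the pseudocount, -0.50 by quantile scaling, -0.009 without batch 2, -0.64 without batch 4, and -0.68 and -0.62 with the block without batch 3 and BNAP/GRP1 4 (-0.58 to 0.56). Abcb1a was 0.61 (-0.57 to 0.25) and Pecam1 0.61 (-0.65 to 0.30) without batch 1, and Tie1 0.40 without batch 1 and 0.047 without batch 2 (-0.80 to 0.24). Tek in GRP3 was 0.087 without batch 1 (-0.75 to 0.053), and in NSC against the mean of the progenitors Tek was -0.45 (-0.41 to 0.38) and Abcb1a -0.064 without batch 1. The cause was not tested.

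The filter at a mean of 5 RPKM leaves some genes untested, and a fit of only the compared populations is the main one for NSC against all progenitors. Tie1 rests on 1201 reads over the 20 libraries, Tek on 1810 and Cdh5 on 2098. The depth allows no statement of absence for genes listed at 0.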
